A study of Mus musculus with 3 samples.

Results

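The interleukin-1 (IL-1) system was followed in mouse bone marrow (BM) cells after injection of leukocyte cell-derived chemotaxin 2 (LECT2), a secreted protein. The 10 genes were chosen by symbol: the ligand genes Il1b, Il1a and Il18, the antagonist gene Il1rn, the receptor genes Il1r1, Il1rap and Il1r2, and the inflammasome genes Nlrp3, Pycard and Casp1. All 10 had a row in the deposited tables, which list 17250 gene names. C57BL/6 mice of 6 to 8 weeks received recombinant LECT2 under the skin once a day, at 300 μg per kg body weight, for 3 or 5 days. The group of 0 days received no injection by the labels, so the other groups differed from it by the injections as well as by LECT2. BM was flushed from several long bones and the pelvis with no sort named in the labels, and 1 library was sequenced for each time point. The study's methods speak of flushed BM cells, whereas a legend of the study names BM mononuclear cells, a preparation that would lose most mature neutrophils, so the input is not certain. The number of mice behind a library is not given in the sources used here.

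IL-1β and IL-1α are inflammatory cytokines that act through the same receptor. IL-1β and IL-18 are made as inactive precursors, which caspase-1 cleaves once a sensor such as NLRP3 has assembled with the adaptor ASC into an inflammasome. The system carries its own brakes, a receptor antagonist that occupies the receptor without signalling and a decoy receptor that binds IL-1 without a signalling domain. In BM, neutrophils, monocytes and macrophages are the best known sources of IL-1β, and IL-1 is known to drive the production of myeloid cells.

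The stretches around the transcription starts of 5 of the genes are given first. Il1r2, Il1b, Il1a and Nlrp3 were lowered by 5 days, with Il1r2 the most, and Casp1 is shown as a gene that was not. Each runs from 250 bases before to 50 bases after the start, in RefSeq on GRCm38.p6, and is written 5′ to 3′ on the strand of the gene. Capitals mark 3 motifs searched on both strands: the NF-kB motif, the C/EBP-type motif TTNNGNAA and the TATA box TATAAA. Il1b lies on the minus strand of chromosome 2 (chr2:129371090-129371389), as does Il1a (chr2:129309923-129310222). Il1r2 is on the plus strand of chromosome 1 (chr1:40085843-40086142). The first of 2 Nlrp3 starts is on the plus strand of chromosome 11 (chr11:59541319-59541618), and that of Casp1 on the plus strand of chromosome 9 (chr9:5298267-5298566).
Il1r2: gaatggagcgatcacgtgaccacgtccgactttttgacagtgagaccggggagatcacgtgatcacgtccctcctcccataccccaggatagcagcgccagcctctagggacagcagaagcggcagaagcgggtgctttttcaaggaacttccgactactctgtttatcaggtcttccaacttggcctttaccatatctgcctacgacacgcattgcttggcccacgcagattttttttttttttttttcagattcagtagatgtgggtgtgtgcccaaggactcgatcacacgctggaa
Il1b: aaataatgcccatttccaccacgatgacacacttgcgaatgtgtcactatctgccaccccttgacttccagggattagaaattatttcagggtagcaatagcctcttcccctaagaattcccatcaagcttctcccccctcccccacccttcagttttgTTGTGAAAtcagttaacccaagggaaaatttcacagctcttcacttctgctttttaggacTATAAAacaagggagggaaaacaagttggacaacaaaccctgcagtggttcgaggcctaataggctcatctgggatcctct
Il1a: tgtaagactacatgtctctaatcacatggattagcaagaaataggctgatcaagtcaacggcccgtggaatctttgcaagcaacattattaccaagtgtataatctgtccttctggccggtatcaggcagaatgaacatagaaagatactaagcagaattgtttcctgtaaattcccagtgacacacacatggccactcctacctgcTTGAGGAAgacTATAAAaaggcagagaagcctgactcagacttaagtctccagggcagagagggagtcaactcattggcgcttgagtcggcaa
Nlrp3: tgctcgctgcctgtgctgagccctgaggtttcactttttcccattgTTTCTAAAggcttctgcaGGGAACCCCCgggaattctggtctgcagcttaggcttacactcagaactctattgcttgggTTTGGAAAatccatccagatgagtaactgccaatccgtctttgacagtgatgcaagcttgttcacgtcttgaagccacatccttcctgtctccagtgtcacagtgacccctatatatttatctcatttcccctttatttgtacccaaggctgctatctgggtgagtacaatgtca
Casp1: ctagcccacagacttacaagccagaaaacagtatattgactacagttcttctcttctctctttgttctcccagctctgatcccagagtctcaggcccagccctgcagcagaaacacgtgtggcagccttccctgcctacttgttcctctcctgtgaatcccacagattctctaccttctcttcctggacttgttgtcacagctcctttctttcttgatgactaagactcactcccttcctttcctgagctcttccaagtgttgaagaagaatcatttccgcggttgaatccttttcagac

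The TATA box of Il1b began at position −31 and that of Il1a at −32, counted from the start. A C/EBP-type motif stood at −91 in Il1b and at −43 in Il1a. The Nlrp3 window held the NF-kB motif at −186 and C/EBP-type motifs at −204 and −125, and its second window held a C/EBP-type motif at −23. The windows of Il1r2 and Casp1 held none of the 3. The 1 Il1r2 window lies inside the gene as GENCODE places it, from 40074079 on. Starts further upstream were not searched, so the lack of a match holds for this window only. Of the 3 windows of Il1rn, which are not printed, 2 held the C/EBP-type motif, but these windows overlap and hold the same sites. Over the 14 windows of the 10 genes, 4 held the TATA box, 9 the C/EBP-type motif and 2 the NF-kB motif, with the sites of Il1rn counted in both of its windows. By gene, 6 of the 10 held a C/EBP-type motif. Among all 32851 windows of this length, the shares were 13.6% for the TATA box, 40.7% for the C/EBP-type motif and 8.46% for the NF-kB motif. The motif TGANTCA of AP-1 was in 2 of the 14 windows and in 7.81% of all windows, and GAGGAA, which PU.1 binds, in 4 of the 14 and in 28.3% of all. A match of letters is a description of the window and not a bound site.

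Levels are given as RPKM, the reads scaled to gene length and to library size, which allows genes of different length to be compared, with the reads counted in each library. A change is the log2 ratio of RPKM + 0.1 between 2 libraries. In brackets after it stands the 95% interval for that ratio, computed by the exact Clopper-Pearson method from the reads. It covers counting error only, as PCR copies cannot be recognised without molecular identifiers. With 1 library per time point no difference has a replicate check, and no test was made. Reads on genes numbered 15523952 at 0 days, 15146983 at 3 days and 15514673 at 5 days. Under this scaling the median log2 ratio of all genes tested was 0.09 at 3 days and 0.31 at 5 days against 0 days, and 0.25 at 5 days against 3 days. Ratios of single genes are read relative to these medians, which TMM scaling brought to 0.01, 0.00 and 0.03.

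At 0 days the 10 genes ranged over more than 2 orders of magnitude. Il1b was the highest at 245 RPKM, ahead of 98.1% of genes with reads, and Il1r1 the lowest at 1.09 RPKM. Between them, from high to low, stood Il1r2, Nlrp3, Il1rn, Casp1, Pycard, Il18, Il1rap and Il1a, and all neighbours in this order differed beyond counting error. At 3 days Il1b and Il1r2 still led, and Il1rn, Casp1 and Nlrp3 followed in this order, where Casp1 differed beyond counting error from neither of its neighbours. At 5 days the order had turned. Casp1 and Pycard came first, then Il1b, and Il1r2 and Nlrp3 shared the next place within counting error, as did Il18 and Il1rap after them. Il1a was then the lowest.

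**Figure D1:**
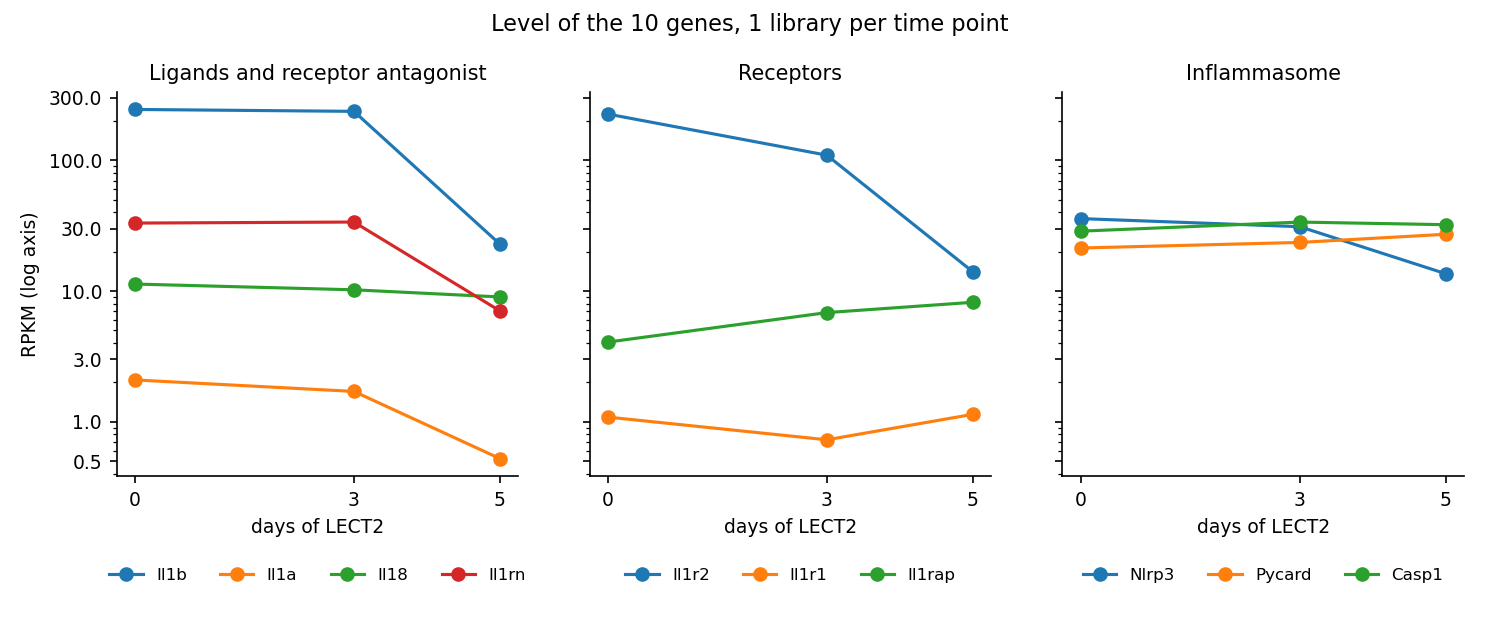
Level of each gene in RPKM (log axis) against days of LECT2 (0, 3 and 5), with 1 point per library and genes grouped by role. Il1b went from 245 to 237 and 22.8 RPKM and Il1r2 from 226 to 109 and 14.0 RPKM, while Casp1 stayed between 28.7 and 33.7 RPKM.

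The ligands did not move alike. Il1b (gene 16176) encodes IL-1β and lies on chromosome 2 from 129364570 to 129371139 (GENCODE M21, GRCm38). It was at 245, 237 and 22.8 RPKM at 0, 3 and 5 days, and the log2 ratio of 5 to 3 days was −3.37 (−3.52 to −3.24). The library of 5 days stood apart from the other two, which lay within counting error of each other with the deposited RPKM (log2 ratio −0.05, or −0.13 under TMM scaling and 0.20 with the length trend removed). Only 50 of 11497 genes tested had a lower ratio than Il1b at 5 days against 0 days. Il1b dropped from rank 308 to rank 3809 of all genes by level.

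Il1a (gene 16175, chromosome 2 from 129299610 to 129309972) encodes IL-1α, which is active without cleavage by caspase-1. It was counted with only 64, 51 and 16 reads, or 2.09, 1.71 and 0.522 RPKM. The log2 ratio against 0 days was −0.28 (−0.85 to 0.26) at 3 days and −1.81 (−2.89 to −1.19) at 5 days. It was thus lowest at 5 days, as Il1b was, but its few reads leave an interval that spans more than a 2-fold range. Il18 (gene 16173, chromosome 9 from 50554827 to 50581840), the other substrate of caspase-1, had 152, 134 and 121 reads, or 11.3, 10.2 and 9.01 RPKM. Its log2 ratios were −0.15 (−0.49 to 0.20) and −0.32 (−0.68 to 0.03) against 0 days, with intervals that include 0 at the deposited scaling. The interval at 5 days lay below the median of all genes, and the ratio was −0.63 under TMM scaling, while that at 3 days turned to 0.29 with the length trend removed. Over the scalings and other alternatives run, the ratio at 5 days lay between −2.09 and −1.02 for Il1a and between −0.63 and −0.01 for Il18.

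Il1rn (gene 16181, chromosome 2 from 24336853 to 24351494) encodes the receptor antagonist. It had 1274, 1266 and 271 reads, or 33.1, 33.7 and 7.04 RPKM. The libraries of 0 and 3 days differed by a log2 ratio of 0.03 (−0.09 to 0.14), or −0.06 under TMM scaling, and at 5 days the ratio against 0 days was −2.22 (−2.43 to −2.04), so that 21.3% of the initial level was left. Il1rn followed the time course of Il1b, with no difference beyond counting error at 3 days and a level several times lower at 5 days. Il1rn was lowered less than Il1b. Of Il1a, the gene of the other agonist, 25.0% was left, from few reads. Within a library, where the scaling of libraries has no part, the ratio of Il1rn to Il1b in RPKM was 0.135 (0.127 to 0.144) at 0 days, 0.142 (0.134 to 0.151) at 3 days and 0.309 (0.265 to 0.359) at 5 days. With the length trend removed it was 0.114 at 3 days and 0.238 at 5 days.

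Among the receptors, the decoy and the signalling chains went apart. Il1r2 (gene 16178, chromosome 1 from 40074079 to 40125231), the decoy receptor, is known to be abundant in neutrophils. It had 4766, 2254 and 296 reads, or 226, 109 and 14.0 RPKM. It was the one gene of the 10 that was at least 2-fold lower already at 3 days, with a log2 ratio of −1.04 (−1.12 to −0.97). At 5 days the ratio was −4.00 (−4.18 to −3.84), a level 16.1-fold lower than at 0 days, and 25 of 11497 genes had a lower ratio. The level thus stepped down in both intervals, and more steeply in the second, the log2 ratio of 5 to 3 days being −2.95 (−3.14 to −2.79). With the trend on gene length removed, the ratio at 3 days was −0.81 and no longer past 2-fold.

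Il1r1 (gene 16177, chromosome 1 from 40225080 to 40317257) encodes the signalling receptor for both IL-1α and IL-1β. Its reads were few, with 81, 53 and 85 in the 3 libraries, or 1.09, 0.728 and 1.14 RPKM. The log2 ratio was −0.52 (−1.10 to −0.06) at 3 days and 0.06 (−0.39 to 0.53) at 5 days against 0 days. The library of 3 days was the lowest and the other two lay within counting error, although under TMM scaling the value at 5 days turned to −0.22 and with the length trend removed to −0.58. Il1r2 and Il1r1 are neighbours on chromosome 1, with 97250 bases between them in RefSeq, which starts Il1r1 further upstream than the GENCODE position given above. Over the same 5 days their ratios were −4.00 and 0.06. The level of the decoy was 208 times (167 to 262) that of the signalling receptor at 0 days, 150.4 times (115 to 201) at 3 days and 12.3 times (9.64 to 15.9) at 5 days. With the length trend removed, the values were 229 times at 3 days, above that at 0 days, and 19.8 times at 5 days, so that only the step at 5 days kept its direction.

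Il1rap (gene 16180, chromosome 16 from 26581704 to 26730117) encodes the accessory chain that IL-1, IL-33 and IL-36 receptors share. It had 289, 474 and 582 reads, or 4.07, 6.84 and 8.20 RPKM, and at 5 days its RPKM was 202% of that at 0 days, the highest such value of the 10 genes. The log2 ratio of RPKM + 0.1 stayed just below 2-fold. It was 0.74 (0.54 to 0.97) at 3 days and 0.99 (0.80 to 1.22) at 5 days. The order of the libraries was thus the reverse of that of Il1b, with the lowest level at 0 days. Il1rap is a long gene of 4576 bases, and long genes had higher ratios as a class. Its ratio at 5 days was 0.69 under TMM scaling and 0.37 with the length trend removed.

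**Figure D2:**
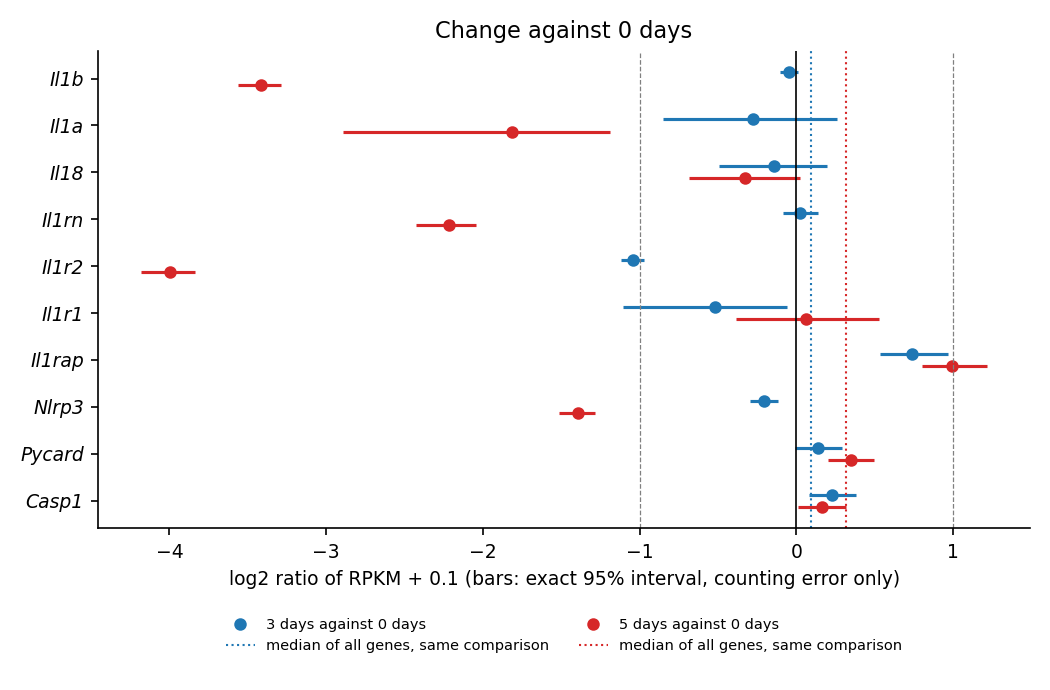
Log2 ratio of RPKM + 0.1 for each gene against the library of 0 days, at 3 days and at 5 days, with exact 95% intervals that cover counting error only. Dashed lines mark 2-fold and dotted lines the median of all genes. At 5 days Il1r2 (−4.00), Il1b (−3.42), Il1rn (−2.22), Il1a (−1.81) and Nlrp3 (−1.39) lie past 2-fold, and Il1rap (0.99) lies just short of it.

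The inflammasome was split between its sensor and its other components. Nlrp3 (gene 216799, chromosome 11 from 59541568 to 59566956) encodes the sensor, whose transcription is known to be raised by NF-kB. It had 2235, 1891 and 846 reads, or 35.8, 31.0 and 13.6 RPKM. The log2 ratio was −0.21 (−0.29 to −0.12) at 3 days and −1.39 (−1.52 to −1.29) at 5 days against 0 days. After 5 days 37.9% of the initial level was left. Most of the difference arose after day 3, as the ratio of 5 to 3 days was −1.19 (−1.31 to −1.08).

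Pycard (gene 66824, chromosome 7 from 127989708 to 127993867) encodes the adaptor ASC. It had 707, 761 and 900 reads, or 21.3, 23.5 and 27.2 RPKM, and a log2 ratio of 0.35 (0.21 to 0.49) at 5 days against 0 days. This ratio was close to the median of all genes, and under TMM scaling the ratio was 0.04. Casp1 (gene 12362, chromosome 9 from 5298517 to 5307265) encodes caspase-1, the protease. It had 683, 782 and 765 reads, or 28.7, 33.7 and 32.2 RPKM. Its log2 ratio of 0.16 (0.01 to 0.32) at 5 days turned to −0.14 under TMM scaling. Neither gene came near 2-fold in any alternative run, where Pycard at 5 days lay between 0.04 and 0.35 and Casp1 between −0.14 and 0.16.

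Ratios within a library put these changes side by side. Nlrp3 stood at 1.25 times the RPKM of Casp1 at 0 days, at 0.922 times at 3 days and at 0.422 times at 5 days. Pycard to Casp1 went from 0.743 to 0.699 and 0.845. Of the caspase-1 substrates, Il18 stood at 0.0462 times Il1b at 0 days, at 0.0431 times at 3 days and at 0.395 times at 5 days. The inflammasome sensor was therefore below its protease at 5 days, and Il18 was closer to Il1b than before.

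**Figure D3:**
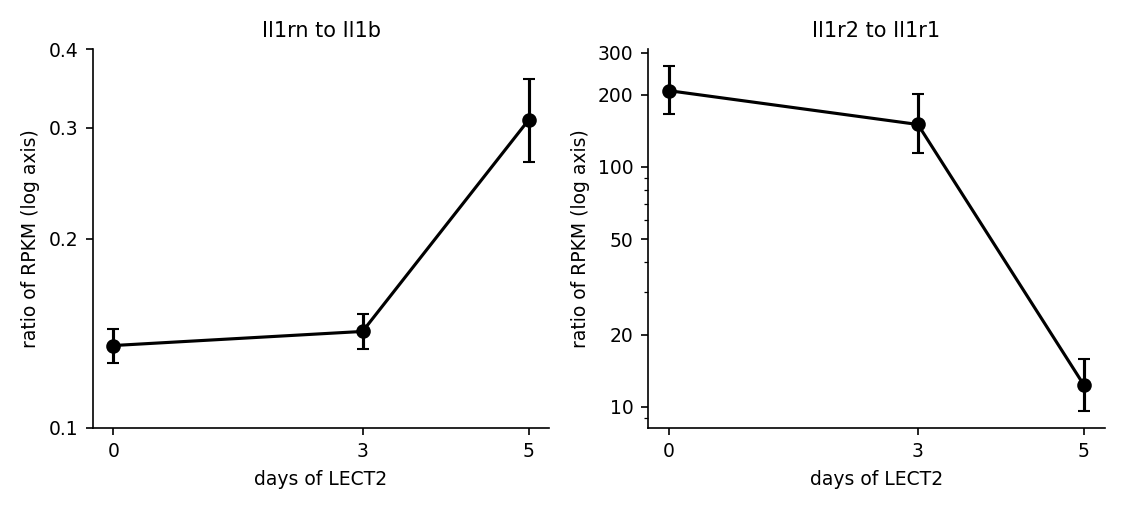
Ratio of RPKM within each library (log axes) against days of LECT2, for antagonist to ligand (Il1rn to Il1b) and decoy to signalling receptor (Il1r2 to Il1r1), with exact 95% intervals for counting error. The first went from 0.135 to 0.142 and 0.309, the second from 208 to 150.4 and 12.3, or to 229 and 19.8 with the length trend removed (not drawn).

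Counted over all 10 genes, 1 was at least 2-fold lower at 3 days against 0 days and 0 were higher. Of all genes with at least 1 RPKM in either library, 2.41% were at least 2-fold lower in that comparison and 4.08% higher. At 5 days against 0 days 5 of the 10 were lower, namely Il1b, Il1a, Il1rn, Il1r2 and Nlrp3, and 0 higher, beside 5.91% lower and 15.5% higher among all genes. At 5 days against 3 days 5 were lower and 0 higher, beside 3.45% and 1.95%. Il1a lost its call in the last comparison with a pseudocount of 1 (−0.83), and with a minimum of 5 RPKM it was not counted, which left 4 lower at 5 days against either library. The comparisons share libraries and are not independent of each other. The median log2 ratio of the 10 genes was −0.10 at 3 days and −0.86 at 5 days against 0 days, and −0.68 between 5 and 3 days. Under TMM scaling these medians were −0.18, −1.17 and −0.91, and with the length trend removed 0.05, −1.28 and −0.90.

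Other genes with a similar course were searched among the 6169 genes whose mean level reached 10 RPKM, by the distance between their pairs of log2 ratios against 0 days (3 days and 5 days). The points are 3 libraries, so likeness rests on 2 ratios and carries no test. The genes nearest to Il1b were Il1f9, Clec4d, Gm10872 and Niacr1, at distances from 0.136 to 0.234. Il1f9 encodes IL-36γ, itself an IL-1 family cytokine, and Clec4d a lectin receptor of myeloid cells. The nearest to Il1r2 were Cxcl10, Cxcl2 and Klf2, the first a chemokine gene at a distance of 0.0729. For Il1rn they were Rhob, Slc16a3 and Fpr2, and for Nlrp3 they were St3gal5, Isg15 and S100a11. The nearest genes to Casp1 were Ets1, Cept1 and Palm, those to Pycard Rps6kb2, Bre and Klraq1, and those to Il1rap Usp25, Wapal and Mau2. For Il18 they were Calcoco1, Zdhhc20 and Gpank1, and for Il1r1 they were Stra13, Cdk4 and Snrnp35.

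The other genes of the pathway were taken as lists. Of 7 other IL-1 family ligands and binding proteins, 2 reached 1 RPKM, Il1f9 and Il18bp. Il1f9 was at 72.7, 65.2 and 6.34 RPKM, with a log2 ratio of −3.50 (−3.76 to −3.29) at 5 days, close to that of Il1b. Il18bp, which encodes the binding protein that neutralises IL-18, was at 12.7, 17.0 and 7.25 RPKM, with log2 ratios of 0.42 at 3 days and −0.80 at 5 days against 0 days and −1.22 at 5 days against 3 days. Under TMM scaling its ratio at 5 days was −1.11, so that both genes were then past 2-fold. Of 5 other IL-1 family receptors tested, 1 was at least 2-fold higher and 0 lower at 5 days, beside 15.5% higher among all genes. The list median of 0.29 (−0.01 under TMM scaling) was close to that of all genes. The highest of them, Il18rap, the second chain of the IL-18 receptor, was at 11.9, 24.3 and 16.5 RPKM, with ratios of 1.03 at 3 days (0.94 under TMM scaling) and 0.47 at 5 days. The 1 gene past 2-fold at 5 days was Il1rl2, the receptor for IL-36, with 17, 36 and 86 reads, which is named here after its values were seen.

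Other inflammasome sensors were mostly not lower at 5 days. Of 9 tested, 5 were at least 2-fold higher at 5 days, where 15.5% of all genes were, and 1 lower, beside 5.91% of all genes, with a median of 1.09. The lower one was Nlrp12, named after its values were seen, with 181, 357 and 75 reads and a log2 ratio of −1.20 at 5 days, near the −1.39 of Nlrp3. With a pseudocount of 1 or a minimum of 5 RPKM it was not called, so that 0 were lower. Under TMM or median-of-ratios scaling, with a pseudocount of 1 or without the 100 most abundant genes 3 were higher, and with the length trend removed 1. Naip2, a sensor of bacterial secretion systems, was at 6.56, 14.5 and 16.8 RPKM (log2 ratio 1.35 at 5 days, or 0.70 with the length trend removed). Mefv, which encodes pyrin, was at 7.08, 9.37 and 15.3 RPKM (1.10, or 0.80 under TMM scaling). Aim2, a sensor of DNA in the cytosol and the highest of the list, was at 19.8, 17.6 and 21.6 RPKM (0.13). These genes are mostly long, and the median was 0.79 under TMM scaling and 0.30 with the length trend removed. Of 12 effectors and regulators 1 was higher (0 with the length trend removed) and 0 lower, with a median of 0.25 (−0.06 under TMM scaling and −0.11 with the length trend removed), and the highest, Serpinb1a, an inhibitor of neutrophil proteases and caspase-1, was at 151, 154 and 114 RPKM. Of 22 genes of IL-1 receptor signalling 1, Map3k3, was higher and 0 lower, with a median of 0.43 (0.12 under TMM scaling and −0.21 with the length trend removed). Map3k3, a kinase gene, was at 16.7, 38.2 and 34.0 RPKM. Its log2 ratio of 1.02 at 5 days fell short of 2-fold under TMM scaling (0.72), with the length trend removed (0.56), under median-of-ratios scaling, with a pseudocount of 1 and without the 100 most abundant genes. Ube2v1, which encodes a partner of the ubiquitin-conjugating enzyme in the TRAF6 step, had the highest mean level of this list, at 65.6, 67.6 and 88.0 RPKM.

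Genes known to respond to IL-1 were lower as a list. Of 16 tested 12 were at least 2-fold lower and 0 higher at 5 days, beside 5.91% lower and 15.5% higher among all genes. The median was −1.80, also with Cxcl3, which had 0 reads at 5 days, at its bound. At 3 days 2 were lower and 0 higher, beside 2.41% and 4.08% of all genes. The lower count at 3 days was 3 under TMM or median-of-ratios scaling. It was 1 after removal of the length trend, and 4 when scaling left out the 100 most abundant genes. Cxcl2, a neutrophil chemokine gene, was at 379, 192 and 18.1 RPKM, with a log2 ratio of −4.38 (−4.56 to −4.22) at 5 days. Nfkbia, the NF-kB inhibitor, was at 991, 401 and 172 RPKM (−2.53), Il6 at 85.5, 38.6 and 10.7 RPKM (−2.98) and Nfkbiz at 188, 136 and 33.8 RPKM (−2.47). The highest, Lcn2, which encodes an iron-binding protein stored in neutrophil granules, was at 10826, 8085 and 3136 RPKM (−1.79). Cxcl3 was counted with 34, 18 and 0 reads, and Csf3 and Csf2, the genes of G-CSF and GM-CSF, with 11, 10 and 0 reads each. Many of these genes also respond to other stimuli, and whether IL-1 set their level was not tested.

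**Figure D4:**
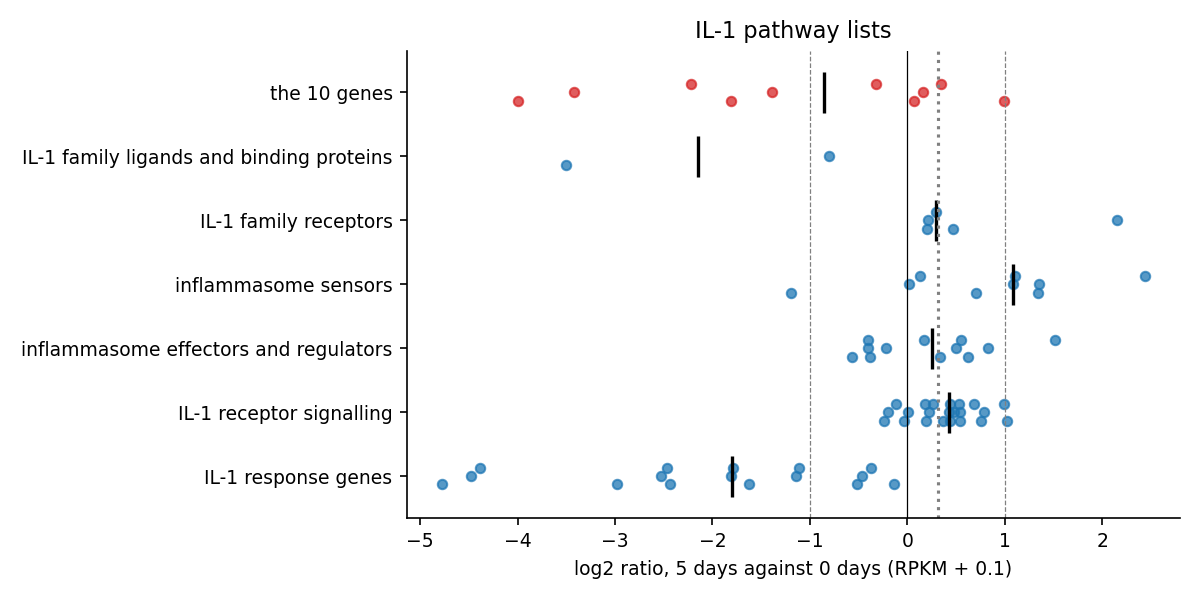
Log2 ratio of RPKM + 0.1 at 5 days against 0 days for the 10 genes and for each list of other pathway genes, with 1 point per gene, a black bar at each median, a dotted line at the median of all genes and dashed lines at 2-fold. Cxcl3, with 0 reads at 5 days, is drawn at a value set by the 0.1 added. The IL-1 response genes have a median of −1.80 and the inflammasome sensors one of 1.09, beside 0.31 for all genes tested.

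In bulk BM a lower level through fewer cells of a type and through less RNA per cell cannot be told apart. Late neutrophil markers were abundant in each library. They moved with the lowered IL-1 genes at 5 days. All 11 tested of 12 listed were at least 2-fold lower, beside 5.91% of all genes. They ranged from −3.96 for Retnlg to −1.03 for Cd177, with a median of −1.88. The row named Csf3r, listed as a noncoding transcript, had under 1 RPKM in each library and may not stand for the coding gene. The summed level of the markers was 139485, 108382 and 38446 RPKM, so that 27.6% was left at 5 days, in a sum led by S100a9. Il1b at 9.32% and Il1r2 at 6.21% were left with less than the markers' sum, Il1rn at 21.3% and Il1a at 25.0% with about as much, and Nlrp3 at 37.9% with more. With the length trend removed, the ratios at 5 days were −1.97 for Nlrp3, −1.98 for Il1a and −2.53 for Il1rn, beside a marker median of −1.75. The ratio was then −1.47 for S100a9, so the place of Nlrp3 against the markers depends on how gene length is treated. The ratio of the lowest single marker, Retnlg, lay between those of Il1r2 and Il1b. At 3 days 0 of the 11 were past 2-fold, with a median of −0.05, where 2.41% of all genes were lower and 4.08% higher. Il1r2 was then at 48.5% of its initial level where the markers' sum was at 77.7%. The part of neutrophil markers in the IL-1 results was not tested.

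Of 15 monocyte and macrophage markers 7 were at least 2-fold higher and 1, Cd14, lower at 5 days, beside 15.5% and 5.91% of all genes. The median was 0.72 (0.41 under TMM scaling, where Mpeg1 and Cd68 at 0.97 each fell short of 2-fold), with a sum that went from 1604 to 1909 and 2425 RPKM. Il1rap moved in the same direction. Of 6 promyelocyte markers tested 1, Mpo, was higher (log2 ratio 1.51, or 1.20 under TMM scaling), with a sum at 159% of that at 0 days, and the sums for B cells (71.4%) and for T and NK cells (82.1%) were somewhat lower. The medians of these lists were 0.40 for promyelocytes (0.09 under TMM scaling), −0.36 for B cells (−0.67) and −0.36 for T and NK cells (−0.66). The erythroid sum was at 36.6%, carried by the globin genes Hba-a1 (2253 to 596 RPKM) and Hbb-b1 (1696 to 527 RPKM), which were the 2 of 9 past 2-fold, while the list median was −0.03 (−0.34 under TMM scaling and −0.43 with the length trend removed). Basophil and mast cell markers were at 72.4% in sum, with a median of −0.20 (−0.51 under TMM scaling). Each marker with a row had reads in all 3 libraries, so that RNA of each listed lineage was detected throughout. The part of these cell types in the results was not tested.

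**Figure D5:**
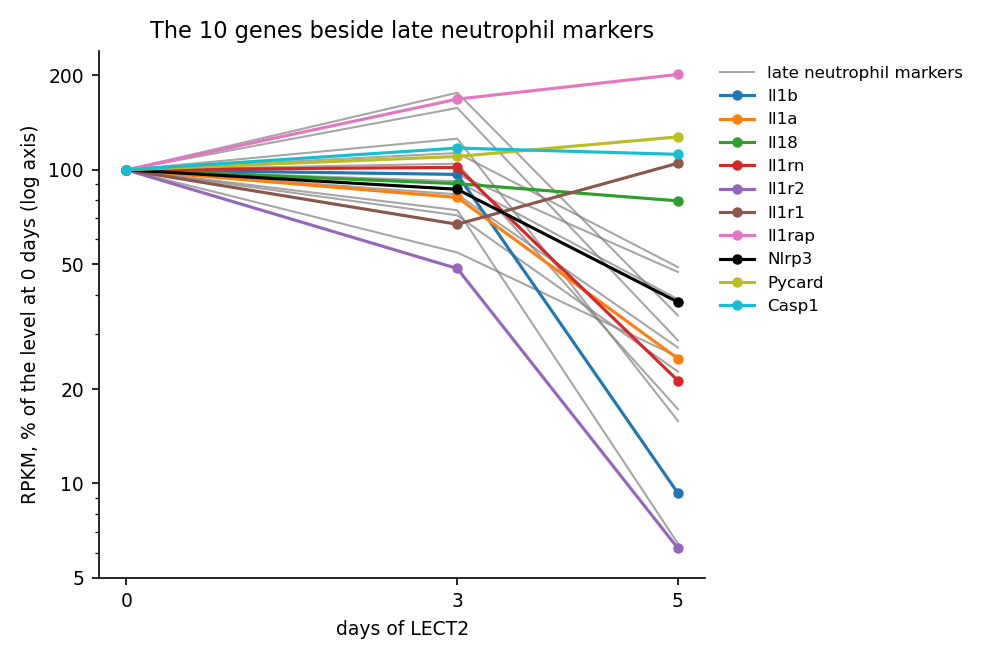
RPKM as a percentage of the level at 0 days (log axis) against days of LECT2, with a coloured line for each of the 10 genes and a grey line for each of the 11 late neutrophil markers tested. At 5 days Il1r2 (6.21%) and Il1b (9.32%) lie at the lower end of the grey lines, Nlrp3 (37.9%), Il1a and Il1rn lie among them, and the other 5 genes lie above them.

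The library kit does not mark strand, so that reads from overlapping genes on opposite strands cannot be told apart. Il1b overlaps the noncoding gene Il1bos, which was counted with 21, 16 and 2 reads. Il1r2 overlaps Gm16894, with 55, 79 and 16 reads, and both counts are small beside those of the coding genes. Il1a overlaps Gm14023, with 19, 14 and 14 reads, which at 5 days is nearly as many as Il1a itself had, so the level of Il1a at 5 days is uncertain. Il18 overlaps Bco2, with 23, 22 and 15 reads.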

How the data were processed

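BM cells of mice given LECT2 for 0, 3 or 5 days were sequenced by the authors, with 1 library per time point, from poly(A) RNA prepared with a TruSeq RNA kit that does not mark strand. The authors named Cufflinks for quantitation, and the submitters' processing notes list the build mm8. The aligner and the use of strand in counting are not given in the sources used here. The deposited tables, 1 for each pair of time points, hold for each gene the gene length and, for each library, the whole read count and the RPKM, which is the count scaled to the gene length and to the reads on all genes. In 18 rows at 0 days and 14 at 3 days, with at most 27 and 36 reads, the RPKM departed from this by over 0.1%, and none of the 10 genes had so few reads there. They also hold the authors' log2 ratios, P values and false discovery rates, which were not used. The deposited tables have 17559 rows. Of the 17250 gene names 232 are repeated, and for these only the row of highest mean RPKM was used. Genes with 0 reads are listed at 0.01 RPKM and were set to 0.

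Genes were matched by symbol. Changes were computed as log2 ratios of deposited RPKM + 0.1, and 95% intervals were taken from the counts by the exact Clopper-Pearson method. A call is a ratio of at least 2-fold among genes with at least 1 RPKM in either library, and no fold was given against a library with at most 3 reads on the gene. There is no replicate, so no test was made. The members, the lists of pathway genes and markers and the alternatives were chosen with earlier results of these data known. All 10 genes are named. Of each list, genes whose mean reached 10 RPKM and that were past 2-fold at 5 days against 0 days are named, up to 4, plus the gene with the highest mean. For likeness the rule takes the 5 nearest genes to Il1b, of which 1 is not reported here, and the 3 nearest to each other gene with at least 50 reads in each library.

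Alternatives were pseudocounts of 1 and 0.01, TMM factors (edgeR 4.0.16), median-of-ratios size factors (DESeq2 1.42.0), scaling without the 100 most abundant genes, removal of the trend on gene length (lowess, statsmodels 0.14.6), adding up the rows of repeated names, a minimum of 5 RPKM or none, and a 4-fold threshold. The 2-fold calls and the exact intervals were checked on simulated counts, and the other steps were not. Computations used Python 3.11.15, pandas 2.3.3, numpy 2.4.6, scipy 1.17.1 and R 4.3.3. Gene positions are from GENCODE M21 (GRCm38) and windows and overlaps from RefSeq (GRCm38.p6), not from the authors' build, as the files carry no coordinates.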

Additional observations from a re-analysis of the deposited data

How the results depend on the processing

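Variation between mice is unknown here. No paired analysis was possible because there was 1 library per time point. The direction of the 5 genes lowered at 5 days was the same under each alternative run, but the size moved. At 5 days against 0 days Il1b lay between −3.73 and −3.36, and Il1r2 between −4.31 and −3.92. Il1rn lay between −2.53 and −2.08, and Nlrp3 between −1.97 and −1.34. Of the 30 ratios of the 10 genes, 16 left their counting interval under TMM scaling and 18 with the length trend removed. Against 1 of the 10 genes lower at 3 days, 0 were with the length trend removed and 0 at 4-fold. At 5 days 1 was higher with a pseudocount of 0.01, Il1rap, and 3 were lower at 4-fold, against 0 days as well as against 3 days. The members' median at 5 days against 0 days moved from −0.86 to −1.17 (TMM), −1.15 (median-of-ratios) and −1.28 (length trend removed). With the length trend removed, the ratio of Il1rn to Il1b was 0.114 at 3 days and 0.238 at 5 days, and that of Il1r2 to Il1r1 229 and 19.8. Of the pathway genes of all lists, 3 were higher and 2 lower at 3 days against 0 days, beside 4.08% and 2.41% of all genes. With a pseudocount of 0.01, 5 were higher, with the length trend removed 1 higher and 1 lower, without the 100 most abundant genes 4 lower, and at 4-fold 0 higher and 0 lower. At 5 days against 0 days 8 were higher and 14 lower, beside 15.5% and 5.91% of all genes. The lists then had 2, 5, 9, 12, 22 and 16 genes tested. The 8 higher became 5 with a pseudocount of 1, TMM, median-of-ratios or without the 100 most abundant genes. After removal of the length trend 2 were higher, and at 4-fold 2 were higher and 8 lower. At 5 days against 3 days 1 was higher and 13 lower, beside 1.95% and 3.45% of all genes. Under a pseudocount of 1, TMM, median-of-ratios, length trend removed, 5 RPKM or 4-fold 0 were higher, and at 4-fold 7 were lower. The cause of these shifts was not tested.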

Other observations

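Genes next to the lowered IL-1 genes did not all share their course. Ckap2l, a gene of the mitotic spindle that lies near Il1a and Il1b on chromosome 2, was at 15.0, 22.5 and 41.2 RPKM at 0, 3 and 5 days, with a log2 ratio of 1.46 at 5 days against 0 days. Il1f9, near Il1rn on the same chromosome, was at 72.7, 65.2 and 6.34 RPKM, whereas Psd4 on the other side of Il1rn was at 25.7, 37.2 and 37.1 RPKM. These are values of 1 library per time point, and no difference between neighbours was tested.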
